A study of Homo sapiens with 4 samples.

Results

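The genes described here encode the translation initiation factors, which were measured by RNA-seq in NCI-H838 MIB1-iKO cells cultured with or without doxycycline (dox). Protein-coding genes with a symbol from EIF1 to EIF6 were taken, leaving out the eIF2 kinases and the eIF4E-binding proteins, which regulate the factors but do not belong to them, and a mean of at least 10 reads over the 4 libraries was required. Of the 58302 genes listed, 48 had such a name when the Y-linked copy of EIF1AX was set aside. 45 of them reached the mean count and are the members described below. The remaining 3, EIF4A1, EIF4E1B and EIF4E3, fell short of it and are given with their reads further on. All 45 members were among the 16181 genes that entered the statistical test. EIF5 was taken as the reference of the comparison because it was already known to differ between these same groups, so its values are given as a description and no test of it is reported.

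NCI-H838 cells were derived from a human lung carcinoma of the non-small-cell type. MIB1-iKO cells carry a piggyBac construct with a guide RNA against MIB1, which encodes an E3 ubiquitin ligase named Mind Bomb 1, and a Cas9 gene that dox switches on through rtTA. The cells were selected with puromycin and grown from single cells, and the labels do not give the guide or the clone of each library. All 4 libraries were from day 3 under basal BMP conditions. The 2 dox libraries came from cells given 0.5 μg/mL dox, and the 2 no dox libraries from the same engineered cells without it. Both groups therefore carried the construct, and the effects of dox, of Cas9 and of MIB1 disruption cannot be told apart with these libraries.

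The no dox libraries held 24398411 and 21207419 reads, the dox libraries 15943025 and 17048990. The targeted gene, MIB1, was counted 598 and 588 times without dox and 90 and 59 times with dox. Its log2 fold change was -2.58 ± 0.23 (SE), with a limma adjusted p of 0.000375. Of 5 epithelial marker genes, 4 reached 1 RPKM (reads scaled to gene length and library depth) and KRT19 was at 0 in every library. The summed level of the epithelial markers was 82.9 to 91.5 RPKM without dox and 67.1 to 72.2 RPKM with dox, and its part in the results below was not tested. Neither the 3 lung lineage markers, with NKX2-1 and SFTPB at 0, nor the 3 leukocyte, 3 fibroblast and 3 endothelial markers reached 1 RPKM. The labels do not say whether replicates came from separate cultures, so p-values measure the spread between these libraries, which may be technical. With 2 libraries in each group an exact two-sided permutation test of a single gene cannot go below p = 0.333, and the p-values given are from limma, which estimates the spread across all genes.

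Translation initiation brings a ribosome and the initiator tRNA to the start codon of an mRNA. eIF2 carries the initiator tRNA to the small ribosomal subunit, where eIF1, eIF1A, eIF3 and eIF5 assemble with it, and the eIF4 factors recruit the mRNA through its cap. eIF5 is the GTPase-activating protein of eIF2: it triggers GTP hydrolysis when the scanning subunit meets a start codon, and eIF2B later reloads eIF2 with GTP. eIF5B then helps the large ribosomal subunit to join. The core genes for these steps are expressed in growing cells generally. Some genes of the family had few or no reads listed here, EIF4A1 and the eIF3 gene EIF3C among them.

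The initiation factor genes, apart from EIF5, differed little between dox and no dox. The log2 fold changes (dox minus no dox) of the 44 other members had a median of 0.01, and their middle range from the lower to the upper quartile was -0.11 to 0.09. The lowest was -0.34 for EIF3J and the highest 0.77 for EIF3CL. 20 lay below 0 and 24 above, where 50.1% of all genes tested lay below 0. EIF5 stood at -0.69 ± 0.11 (SE), 0.36 below the next member.

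None of the 44 was called, that is, differed 2-fold with its adjusted p at or under 0.05, where 0.0371% of all genes tested were called. Counts of 0 were also obtained with edgeR and with DESeq2. With the limit on the adjusted p alone, which 0.0680% of all genes passed, the limma count in the model of group alone, without a term for the replicate number, remained 0, and the smallest adjusted p was 0.463. At an unadjusted p under 0.05 the count was 1, EIF4G2, or 2.27% of the 44, against 9.28% of all genes tested. DESeq2 likewise gave 1 (EIF4G2), and edgeR gave 1 (EIF3J). The 2 dox libraries were both below the 2 no dox libraries in CPM (reads per 1000000 reads of the library) for 6 of the 44 (13.6%) and both above them for 6 (13.6%). The corresponding shares over all genes were 17.4% and 18.7%, so the members did not exceed the background in either direction. A log2 fold change under 0.2 in size was found in 37 of the 44, or 84.1%, against 58.7% of all genes. The members were more deeply counted, with a median mean count of 1674 against 249 over all genes tested, and fold changes scatter less at higher counts.

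**Figure D1:**
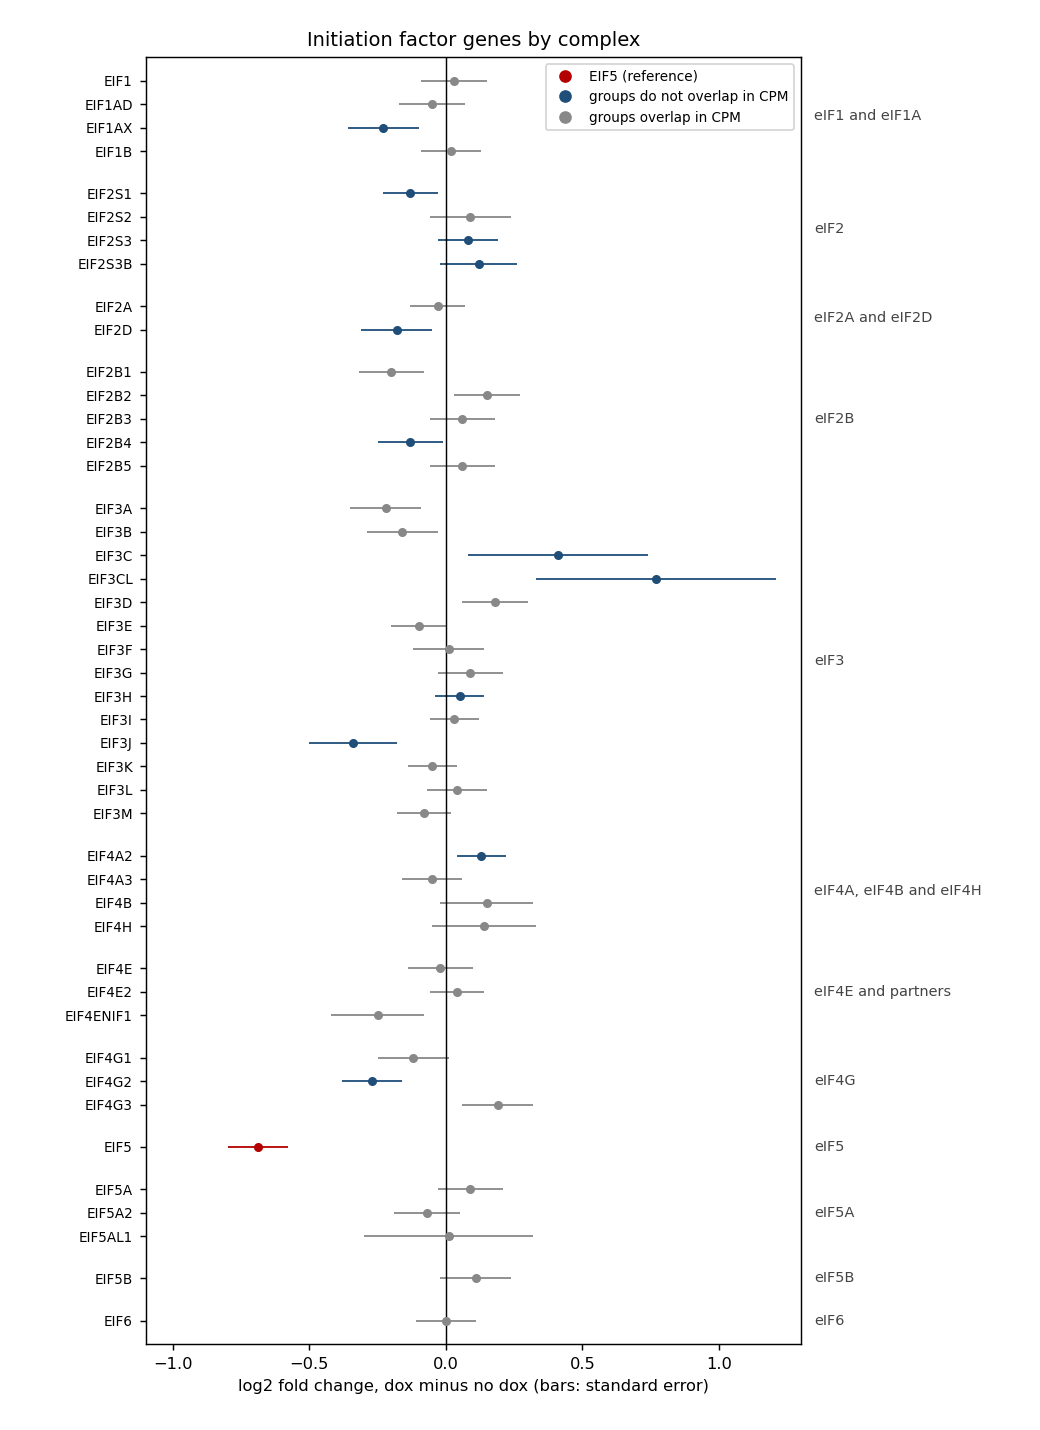
Log2 fold change (dox minus no dox) of each of the 45 initiation factor genes with its standard error, grouped by factor complex, 2 libraries per group. EIF5 (red) lies at -0.69, the lowest value, and 37 of the 44 other genes lie within 0.2 of 0. Blue marks genes whose groups do not overlap in CPM.

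EIF5 (ENSG00000100664) lies on the plus strand of chromosome 14 from 103333544 to 103345025 (GRCh38, GENCODE release 44). Its reads numbered 15480 and 13020 without dox, against 7010 and 5959 with dox. Relative to the library totals these were 634 and 614 CPM without dox and 440 and 350 CPM with dox. Both dox libraries were below both no dox libraries, at 70.4% and 56.0% of the no dox mean. The dox libraries were also farther apart from each other (0.33 on the log2 CPM scale) than the no dox libraries were (0.05). The median gap over all members was 0.19 for dox and 0.11 for no dox, and 3 members had a larger gap between the dox libraries than EIF5. Its level per length had a mean of 93.0 ± 6.71 RPKM in no dox against 58.5 ± 13.8 RPKM in dox libraries (SD, n = 2 each), a ratio of 0.629. The size of the difference depended on the dox library: the log2 fold change was -0.84 without dox replicate 1 and -0.54 without dox replicate 2.

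EIF5 also stood apart from other deeply counted genes. Of all genes tested, 468 (2.89%) had a log2 fold change at or below that of EIF5. Of the 294 genes counted at least as deeply as EIF5, itself included, 0 had a lower one. These ranks use the contrast that chose EIF5 as the reference and are given as a description.

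**Figure D2:**
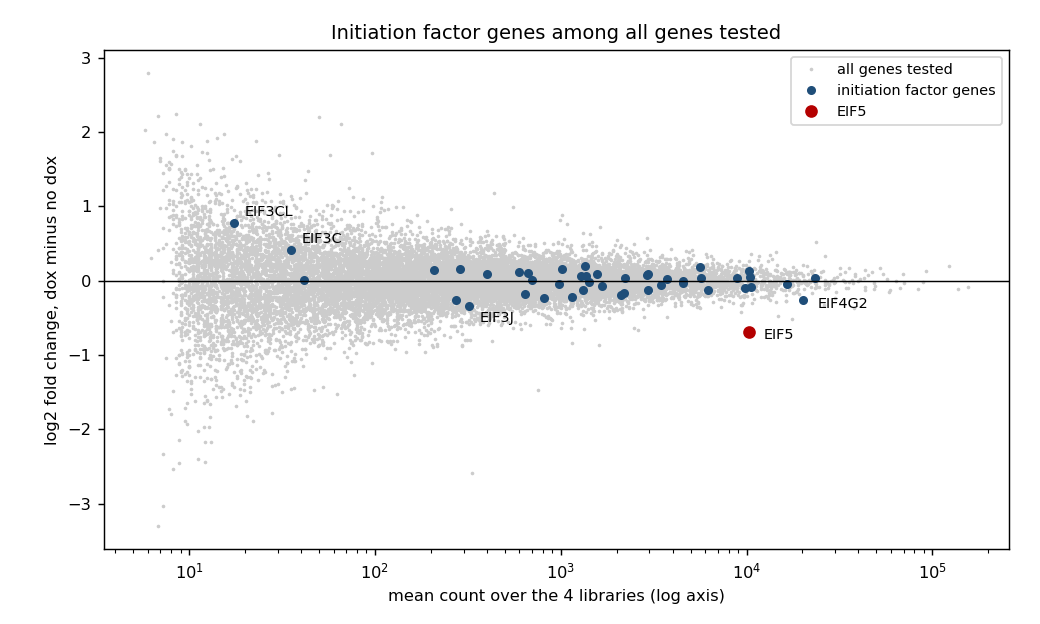
Log2 fold change (dox minus no dox) against the mean count over the 4 libraries (log axis) for the 16181 genes tested (grey), the initiation factor genes (blue) and EIF5 (red). Of the 294 genes counted at least as deeply as EIF5, itself included, 0 lie below it. The widest fold changes among the other members, those of EIF3C and EIF3CL, belong to genes with few reads.

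The sequence before the start of EIF5 is shown beside that of EIF4G2, which had the smallest limma p of the 44 others. Both are from RefSeq (GRCh38.p14), cover 130 to 45 bases upstream of an annotated start and read 5′ to 3′ along the gene's strand. The EIF5 stretch is chr14:103334107-103334192 on the plus strand, before the start at 103334237, and the EIF4G2 stretch is chr11:10808971-10809056 on the minus strand, before the start at 10808926. Capitals mark CCAAT and GGGCGG (the GC box) or their reverse complements.
EIF5: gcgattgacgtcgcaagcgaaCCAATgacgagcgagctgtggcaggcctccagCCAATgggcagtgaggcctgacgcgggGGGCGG
EIF4G2: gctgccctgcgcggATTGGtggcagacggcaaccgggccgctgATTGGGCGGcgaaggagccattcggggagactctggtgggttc
EIF5 held CCAAT at 109 and 77 bases upstream and GGGCGG at 50 bases, and EIF4G2 held CCAAT on the opposite strand at 116 and 87 bases and GGGCGG at 84 bases, overlapping the nearer CCAAT. These are matches of letters only, and members with either motif had log2 fold changes of both signs, as given with the motif shares below. Each gene has another annotated start, and neither of those other windows held a CCAAT.

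The genes of the partners of eIF5 in the scanning complex lay nearer to 0 than EIF5. EIF1, whose product guards start codon selection and competes with eIF5 on the small subunit, had 275 and 297 CPM without dox and 262 and 321 CPM with dox. EIF1AX, which encodes eIF1A, had 42.4 and 45.7 CPM without dox and 39.0 and 35.7 CPM with dox. The groups overlapped for EIF1 and not for EIF1AX, whose log2 fold change of -0.23 ± 0.13 (SE) did not pass the test (limma adjusted p = 0.643).

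The 3 subunits of eIF2 lay within 0.13 of 0. EIF2S1, the alpha subunit that stress kinases phosphorylate, had 323 and 329 CPM without dox and 299 and 298 CPM with dox, with a log2 fold change of -0.13 ± 0.10. EIF2S2, the beta subunit, which binds eIF5, had 19.5 and 20.2 CPM without dox and 19.6 and 22.7 CPM with dox (0.09 ± 0.15). EIF2S3, the gamma subunit that holds GTP and the tRNA, had 143 and 146 CPM without dox and 146 and 159 CPM with dox (0.08 ± 0.11). Only the alpha subunit had a lower level in both dox libraries, and the gamma subunit had the opposite order. Neither passed the test (limma adjusted p = 0.734 for EIF2S1 and 0.870 for EIF2S3). EIF5B had 31.1 and 35.1 CPM without dox and 32.8 and 37.8 CPM with dox, so that the groups overlapped, with a log2 fold change of 0.11 ± 0.13.

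**Figure D3:**
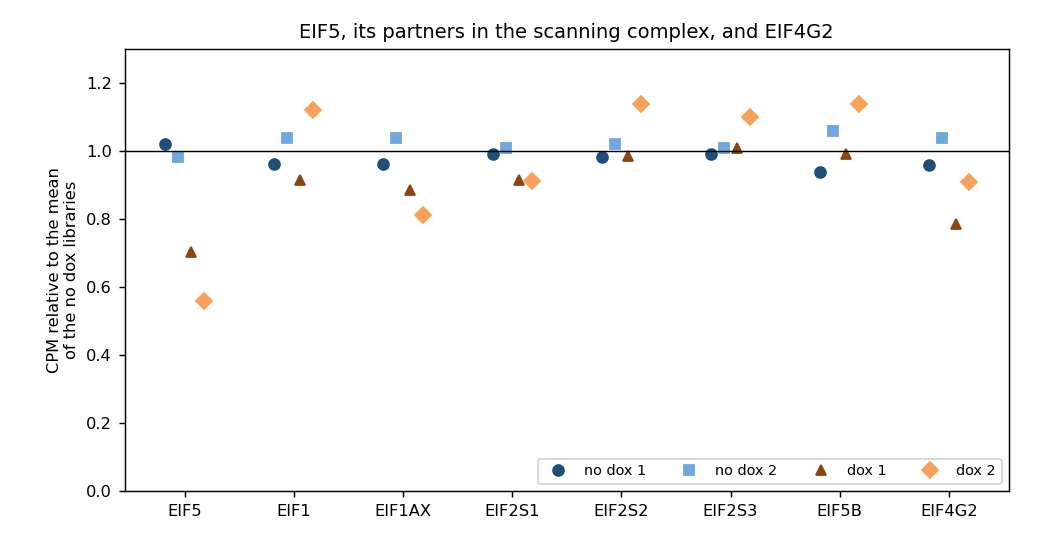
CPM of EIF5, its partners in the scanning complex and EIF4G2 in each of the 4 libraries, relative to the mean of the 2 no dox libraries (line at 1). The dox libraries of EIF5 lie at 0.704 and 0.56, and the next lowest points are the dox libraries of EIF4G2 (0.785 for dox 1) and EIF1AX.

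Within a library, a ratio of 2 genes does not depend on the scaling of that library. The RPKM ratio of EIF5 to EIF2S1 was 1.53 and 1.45 without dox and 1.15 and 0.914 with dox. The ratio to EIF2S3 was 1.88 and 1.79 without dox and 1.28 and 0.930 with dox. For EIF1 it was 0.801 and 0.718 without dox and 0.583 and 0.377 with dox. Every one of these ratios was lower in both dox libraries. Relative to each of 9 partner or reference genes (EIF1, EIF1AX, EIF2S1, EIF2S2, EIF2S3, EIF5B, EIF2B5, EIF4G2 and EIF6) the mean ratio with dox was 0.598 to 0.754 of that without dox, lowest against EIF5B and highest against EIF4G2. All of them share the EIF5 values and repeat its difference.

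In the eIF1 and eIF1A group (4 genes, median log2 fold change -0.02), EIF1 (0.03) was the highest and EIF1AX the lowest. EIF1B, another gene for an eIF1 protein, had 189 and 186 CPM without dox and 194 and 188 CPM with dox (0.02). EIF1AD, named for its eIF1A domain, had a log2 fold change of -0.05. EIF2S3B, a near-identical copy of EIF2S3, had 29.7 and 29.5 CPM without dox and 32.1 and 31.6 CPM with dox, and was the highest of the eIF2 group (0.12 ± 0.14). Reads of such copies may be assigned to either gene, and its order between groups was the same as that of EIF2S3. EIF2A and EIF2D, whose products can deliver initiator tRNA without eIF2, had log2 fold changes of -0.03 and -0.18. EIF2D had 33.1 and 36.2 CPM without dox and 30.5 and 30.0 CPM with dox (limma adjusted p = 0.720).

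eIF2B, the exchange factor that returns GTP to eIF2, is built from 5 subunits. Their log2 fold changes had a median of 0.06. EIF2B1, the alpha subunit, was the lowest (-0.20 ± 0.12), with 106 and 122 CPM without dox and 89.6 and 108 CPM with dox. EIF2B2, the beta subunit, was the highest (0.15 ± 0.12), with 49.5 and 49.7 CPM without dox and 49.4 and 59.8 CPM with dox. In both genes the groups overlapped. Of the subunits only EIF2B4 had groups apart, lower with dox (-0.13 ± 0.12). The catalytic subunit EIF2B5 (0.06) and EIF2B3 (0.06) had overlapping groups.

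eIF3, the scaffold that holds the small subunit, the other factors and the mRNA together, was covered by 14 genes, with a median log2 fold change of 0.02, 6 of them below 0 and 8 above. EIF3J, a loosely bound subunit that acts in the mRNA channel of the small subunit, had 17.9 CPM in each no dox library and 12.6 and 15.5 CPM with dox. Its log2 fold change of -0.34 ± 0.16 was the lowest after EIF5 and did not pass the test (limma adjusted p = 0.550), and it was -0.43 to -0.26 when single libraries were left out. EIF3D, which contacts the mRNA, had the highest value after the low-count pair described next (0.18 ± 0.12). Its limma adjusted p was 0.685 in the model of group alone, and the value with a replicate block is given further on. EIF3D had 250 and 295 CPM without dox and 284 and 331 CPM with dox. The large subunits EIF3A (-0.22 ± 0.13) and EIF3B (-0.16 ± 0.13) had overlapping groups. EIF3H was higher with dox in both libraries, by 0.05 ± 0.09.

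EIF3C and EIF3CL are near-identical neighbours on chromosome 16 whose reads cannot be told apart with certainty. EIF3C was counted at 36 and 34 reads in no dox and 30 and 41 reads in dox libraries, and EIF3CL at 13 and 17 against 16 and 24 reads. Their log2 fold changes, 0.41 ± 0.33 and 0.77 ± 0.44, were the 2 highest of the family, rested on these few reads and did not pass the test (limma adjusted p = 0.748 and 0.629).

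The deposited levels of subunits that occur together in eIF3 were far apart. Averaged over the 4 libraries, EIF3I stood at 822 RPKM, EIF3K at 555 RPKM and EIF3E at 321 RPKM. The core subunit EIF3A stood at 8.62 RPKM, EIF3F at 4.69 RPKM and EIF3C at 0.515 RPKM. Copies elsewhere in the genome and overlapping gene models can take reads from a gene, so levels between genes are less certain than the comparison of 1 gene between libraries. EIF3L, for example, shared 51.8% of its exon bases with other annotated genes. The shares did not follow the levels throughout: EIF3A shared 0.86% and EIF3I 9.33%. What set the levels apart was not tested.

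**Figure D4:**
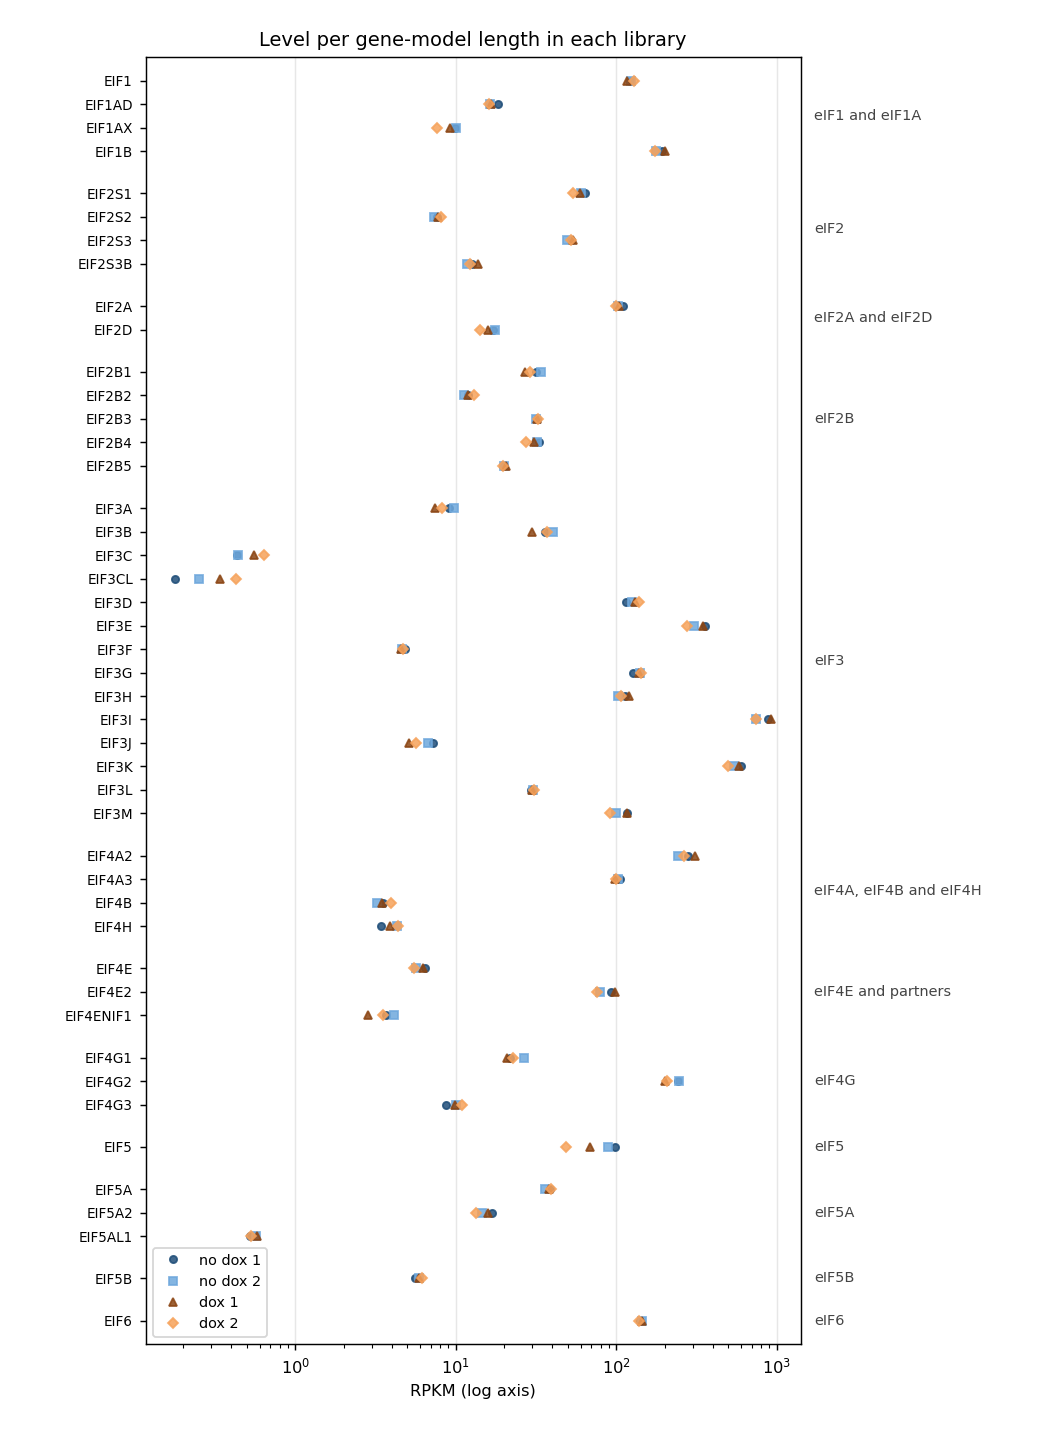
Deposited level (RPKM, log axis) of each of the 45 initiation factor genes in each of the 4 libraries, grouped by factor complex. Levels of the eIF3 genes run from below 1 RPKM (EIF3C, EIF3CL) to a mean of 822 RPKM (EIF3I), a far wider spread than that between the libraries of any gene; the dox libraries of EIF5 lie left of its no dox libraries.

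In the eIF4A, eIF4B and eIF4H group, the helicase and the proteins that stimulate it, the median log2 fold change was 0.13 over 4 genes. EIF4A2, a helicase gene, had 520 and 478 CPM without dox and 568 and 542 CPM with dox (0.13 ± 0.09, limma adjusted p = 0.712). EIF4B, the highest, had 14.2 and 13.9 CPM without dox and 13.7 and 17.4 CPM with dox (0.15 ± 0.17). EIF4A3, whose product is part of the exon junction complex, was the lowest (-0.05), with 175 and 184 CPM without dox and 162 and 183 CPM with dox. EIF4H had a log2 fold change of 0.14. Groups overlapped in all but EIF4A2, which was higher in both dox libraries.

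EIF4A1, the main helicase gene, was listed at 0 reads in every library. Its exon bases were shared with other annotated genes to 47.4%, and 13 pseudogenes carry its name. The read-through gene SENP3-EIF4A1 took 31 and 31 reads in no dox and 21 and 19 reads in dox libraries. EEF1G, an elongation factor gene that growing cells use, was also listed at 0. The zero is therefore a listing and was not read as an absence of expression. EIF4E1B was listed at 0 in every library too, and EIF4E3 took 2 and 6 reads in no dox and 6 and 2 reads in dox libraries.

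The cap-binding protein gene EIF4E had 75.0 and 70.4 CPM without dox and 72.1 and 70.8 CPM with dox (-0.02 ± 0.12). EIF4E2, whose product binds caps without eIF4G, was the highest of the group (0.04), with 466 and 430 CPM without dox and 492 and 423 CPM with dox. EIF4ENIF1, which encodes a carrier of eIF4E, was the lowest (-0.25 ± 0.17), with 13.5 and 16.3 CPM without dox and 10.4 and 14.4 CPM with dox. The groups overlapped in each of the 3 genes.

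The eIF4G scaffolds spread in both directions. EIF4G2, which encodes the relative of eIF4G that lacks the eIF4E-binding part, had 1048 and 1138 CPM without dox and 858 and 994 CPM with dox, or 244 ± 2.25 RPKM against 204 ± 5.92 RPKM (SD, n = 2 each). Both dox libraries were below both no dox libraries. Its log2 fold change of -0.27 ± 0.11 was the only one of the 44 with an unadjusted limma p under 0.05, as had 4.59% of all genes in this direction, and in the model of group alone it did not pass after adjustment over all genes (limma adjusted p = 0.463). It was -0.12 without dox replicate 1 and -0.41 without dox replicate 2. EIF4G3 was the highest of the group (0.19 ± 0.13), with 58.4 and 71.7 CPM without dox and 65.4 and 81.6 CPM with dox, and EIF4G1, the main scaffold, lay at -0.12 ± 0.13. Groups overlapped in both.

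eIF5A, which despite its name acts mainly in elongation and termination, and eIF6, which keeps the large subunit from joining early, showed no gap between groups. EIF5A had 77.5 and 77.8 CPM without dox and 76.0 and 87.4 CPM with dox (0.09 ± 0.12). EIF5A2, its paralog, had 90.5 and 83.8 CPM without dox and 84.8 and 79.7 CPM with dox (-0.07 ± 0.12). EIF5AL1, a copy of EIF5A, took 47 and 48 reads in no dox and 34 and 37 reads in dox libraries, and its log2 fold change was 0.01 ± 0.31. EIF6 had 222 and 244 CPM without dox and 225 and 241 CPM with dox. The groups overlapped in all 4 genes.

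All members together held 0.970% and 0.969% of the reads without dox and 0.932% and 0.933% with dox. Without EIF5 these shares were 0.907% and 0.908% against 0.888% and 0.898%. EIF5 alone went from 0.0634% and 0.0614% to 0.0440% and 0.0350%. In bulk libraries fewer cells of a kind and less RNA per cell cannot be told apart.

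The set of RefSeq promoter windows used (250 bases before to 50 after an annotated start) covered 38 of the 45 members, with 52 windows in all. It held no window for EIF2S2, EIF3A, EIF3CL, EIF3E, EIF3G, EIF3H and EIF3L. Many ribosome and translation genes start with a C and a run of pyrimidines, the terminal oligopyrimidine tract through which their mRNAs respond to mTOR. A C at the start and pyrimidines over the first 5 bases were found in 10 of the 52 windows (19.2%), against 4.07% of all 35116 windows and 5.17% of the 15429 windows of genes tested. The first 20 bases of 6 of the 10 and of EIF5, which has none, are shown to let the tract be read, with the tract in capitals.
EIF3F, chr11:7987337-7987356, plus strand: CTTCTTTCTCgacaagatgg
EIF3D, chr22:36529147-36529166, minus strand: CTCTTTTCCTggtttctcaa
EIF3K, chr19:38619188-38619207, plus strand: CTCTTCCTgttcccgtcctt
EIF2A, chr3:150546787-150546806, plus strand: CTCTTTCCgggacaacatgg
EIF2S3, chrX:24054956-24054975, plus strand: CTCTTTTggcaacatggcgg
EIF4B, chr12:53006456-53006475, plus strand: CTTTTgcgttctctttccct
EIF5, chr14:103334237-103334256, plus strand: agtcagagcgagaacattcc
The other 4 with a tract were EIF2D, EIF2S3B, EIF3M and EIF4A2. Their annotated starts are single positions, and the starts used in these cells were not measured. The 10 members had log2 fold changes of -0.18 to 0.18 with a median of 0.04, and the 28 others with a window had a median of -0.01.

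In the same windows, searched on both strands, CACGTG (the E-box) stood in 19.2% of the members' windows, against 7.26% of all windows and 9.46% of those of genes tested. CCGGAA (the ETS core) stood in 38.5%, against 17.2% and 27.2%. GGGCGG stood in 69.2%, against 45.0% and 66.5%. CCAAT stood in 36.5%, against 34.6% and 34.7%. TATAAA stood in the window of EIF4A2 alone, or 1.92%, against 11.5% and 6.24%. The GC box and CCAAT shares were thus near those of genes tested, and the windows of EIF5 held those motifs and neither the E-box nor the ETS core. Members with an E-box had log2 fold changes of -0.12 to 0.15. Those with CCAAT had -0.69 (EIF5) to 0.18, with a median of -0.03 against 0.03 for members whose windows lacked it. For GGGCGG the range was -0.69 (EIF5) to 0.19, with a median of -0.05 against 0.01.

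Genes that regulate or assist the factors were taken as 5 lists with 41 genes, of which 39 were tested. Their log2 fold changes had a median of 0.01 and ran from -0.34 (MKNK1) to 0.50 (MXI1), 19 below 0 and 20 above. By limma 0 passed the adjusted p limit (the smallest was 0.246). An unadjusted p under 0.05 was found in 3 of the 39, against 1501 of the 16181 genes tested (9.28%), in either direction. All 3 were higher with dox, whereas 743 of the 1501 were lower with dox. The eIF2 kinases and phosphatase subunits (6 genes, median 0.20) had 5 genes above 0. Among these, PPP1R15A, which brings the phosphatase to eIF2, had 17.2 CPM in each no dox library and 18.8 and 29.9 CPM with dox (0.48 ± 0.18, limma adjusted p = 0.407), most of it in dox replicate 2. The eIF4E-binding proteins and mTOR inputs (9 genes) had a median of -0.11, the accessory factors (11 genes) -0.10, the elongation and termination factors (9 genes) 0.01 and the transcription regulators of growth (4 genes) 0.07.

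BZW1 and BZW2 encode mimics of eIF5 that share its eIF2-binding domain. BZW1 had 217 and 211 CPM without dox and 195 and 186 CPM with dox (-0.17 ± 0.11, limma adjusted p = 0.663). BZW2 had 986 and 928 CPM without dox and 1121 and 1104 CPM with dox (0.20 ± 0.09, limma adjusted p = 0.504). The groups did not overlap in either gene and stood in opposite order, and neither passed the test. MXI1, a MAX-binding repressor, had 38.2 and 41.1 CPM without dox and 48.0 and 63.1 CPM with dox (0.50 ± 0.13, limma adjusted p = 0.246), whereas MYC (0.07) had overlapping groups.

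Over the 12324 genes counted at least 50 times on average, the 5 whose centred log2 CPM over the 4 libraries was nearest to that of EIF5 were GSDMC, ATAD3B, PDZD2, ZNF778 and RCBTB2, at Euclidean distances of 0.094 to 0.123 on the log2 scale. GSDMC, the nearest, took 173 and 154 reads in no dox and 73 and 64 reads in dox libraries, far fewer than EIF5. The nearest member of the family was EIF1AX, at a distance of 0.472 and rank 663, followed by EIF2D (0.539) and EIF3J (0.550). In this ranking 662 genes lay nearer to EIF5 than any other initiation factor gene did. The distances use the libraries that chose EIF5 as the reference, so members with fold changes near 0 had to lie far from it. They are given as a description.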

How the data were processed

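RNA-seq libraries of NCI-H838 MIB1-iKO cells at day 3, 2 without and 2 with dox, were grouped by the sample labels. Following the study's methods, the authors used GSNAP to place single-end reads on GRCh38 and HTSeqGenie to count those over exons. The deposited counts are whole numbers per gene without normalization. The authors' RPKM values are reads scaled by gene-model length and depth, with a further scaling per library. The annotation named in the methods is RefSeq's but the identifiers are Ensembl's, and the kit and use of strand are not given for these samples, so reads of overlapping genes and near-identical copies are uncertain.

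Identifiers were matched to GENCODE release 44 (57532 of 58302 had a symbol; the other 770 were kept). Genes were filtered with filterByExpr (16181 kept), scaled by library size, brought to common quantiles and compared with limma 3.58.1 (voom, lmFit, eBayes; R 4.3.3) in a model of group alone, with Benjamini-Hochberg adjustment over all genes. Calls required a 2-fold difference and an adjusted p at or under 0.05. Counts were used for the test and for CPM, and RPKM for levels and ratios. Alternatives were edgeR 4.0.16, DESeq2 1.42.0, other scalings and filters, log2(RPKM + 0.1) and log2(RPKM + 1), thinning to the smallest total, a replicate block, other thresholds and leaving out each library. Totals of 15943025 to 24398411 reads set the precision, and no library was a repeat of another (chi-square per degree of freedom between any 2 libraries of 8.18 or more).

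The members, lists and tests were chosen with earlier results of these data known. Values by library are given for EIF5, its scanning partners, the highest and lowest member of each complex with at least 3 members, near-identical pairs and any member or listed gene with an unadjusted p under 0.05, and other members as ranges or log2 fold changes. The level of the Y-linked member of the family is not reported here. Promoter windows were from RefSeq (GRCh38.p14).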

Additional observations from a re-analysis of the deposited data

How the results depend on the processing

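The count of called members other than EIF5 was 0 under all 16 alternatives, those leaving out a library included. The median log2 fold change of the members was 0.00 to 0.02 under the other alternatives and -0.01 to 0.02 when a library was left out. That of EIF5 was -0.69 to -0.66, and -0.84 to -0.54 when a library was left out, the extremes without either dox replicate. A left-out library leaves 1 sample in a group, which is assumed to vary like the others. Of the 44 other members, 27 kept the sign of their log2 fold change in all 14 refits.

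The labels do not say what the replicate numbers mark, so the libraries were not taken as pairs. The difference between replicates correlated between groups at r = 0.144 over 16181 genes. As a hint from the data and not the design, libraries of the same number were the closest across groups (chi-square per degree of freedom of 8.26 and 8.18, against 15.77 and 15.94 for unlike numbers), and closer than the replicates within a group (9.34 for no dox and 13.14 for dox). With the replicate block, the log2 fold change of EIF5 was -0.69, the median of the members 0.01 and the count of called members 0, but 1154 genes passed the adjusted p limit of 0.05, against 11 without it. Among them were EIF4G2 (-0.27, adjusted p = 3.39e-05, against 0.431 to 0.923 in the fits without a block, those leaving out a library included) and EIF3D (0.18, adjusted p = 0.0417, against 0.677 to 0.976). EIF4G2 and EIF3D were the only 2 of the 44 members other than EIF5 to pass with the block, against 1154 of 16181 genes. With the block, 10 of the 44 had an unadjusted p under 0.05, against 3276 of the 16181 genes. In the model of group alone these counts were 1 and 1501. The low count among the members at an unadjusted p under 0.05 thus depended on the model. DESeq2 gave no adjusted p for EIF3C, EIF3CL and EIF5AL1, whose few reads limit them most. Intervals of counting error do not cover PCR duplication, since reads carried no molecular identifiers.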

Other observations

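The genes around EIF5 on chromosome 14 were examined after the values of EIF5 had been seen. Of 10 tested genes within 250 kb, 7 had a log2 fold change below 0, where 50.1% of all genes tested lay below 0. The values ran from -0.51 (LBHD2) to 0.71 (EXOC3L4), both with few reads. MARK3, a kinase gene whose start lies 40352 bases beyond the end of EIF5, had 168 and 171 CPM without dox and 154 and 178 CPM with dox. Its log2 fold change was -0.02 ± 0.11 (SE). CKB, which encodes brain-type creatine kinase, had 253 and 288 CPM without dox and 220 and 246 CPM with dox (-0.21 ± 0.11). None passed the limma test across all genes (smallest adjusted p = 0.605, for CKB), and 0 had an unadjusted p under 0.05. EIF5-DT, the divergent transcript before EIF5, took 0 and 2 reads in no dox and 3 and 1 reads in dox libraries, too few for a comparison.

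Named pseudogene copies were annotated for 20 of the 45 initiation factor genes, 9 of them for EIF4B and 2 for EIF5. The median level was 56.8 RPKM for genes with such copies and 23.0 RPKM for those without. The gene of elongation factor eEF1A1, which also has many copies, took 913 and 837 reads in no dox and 704 and 802 reads in dox libraries. Relative to the library totals these were 37.4 and 39.5 CPM without dox and 44.2 and 47.0 CPM with dox (log2 fold change 0.26 ± 0.13, limma adjusted p = 0.550). EIF5 shared 7.71% of its exon bases with other annotated genes.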
